A study of Mus musculus with 16 samples.

Results

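The report covers 10 cell-surface genes among the 39017 mouse genes in the deposited table: the delta-protocadherins *Pcdh1*, *Pcdh7*, *Pcdh9*, *Pcdh8*, *Pcdh10*, *Pcdh17* and *Pcdh19*, and the calsyntenins *Clstn1*, *Clstn2* and *Clstn3*. They were chosen by name as a family, with earlier results of these data known, and all 10 were abundant enough to be tested. *Pcdh1*, *Pcdh7* and *Pcdh9* are delta-1 protocadherins, *Pcdh8*, *Pcdh10*, *Pcdh17* and *Pcdh19* are delta-2 protocadherins, and the further family members *Pcdh11x* and *Pcdh18* are described with the partner genes. The samples were 16 RNA-seq libraries of micro-dissected brain from 13-week-old male C57BL/6JRcc mice, 4 WT and 4 Mutant libraries from each of the prefrontal cortex (PFC) and the ventral midbrain (vMB). Mutant mice were homozygous for Cdh2 H150Y, a knock-in of one amino acid change in N-cadherin, and were bred from 2 founder lines, and the line behind each library is not stated in the sources read here. All animals had gone through behavioral tests and were perfused with PBS and then formaldehyde before 1 hemisphere was frozen and dissected.

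Delta-protocadherins are single-pass adhesion proteins of the cadherin superfamily, encoded outside the large protocadherin gene clusters. They bind mainly to their own kind on the facing membrane and guide cell sorting, axon growth and synapse formation. The delta-1 type carries a cytoplasmic motif that binds protein phosphatase 1, and several delta-2 members bind the WAVE complex, which drives branching of actin. Calsyntenins carry cadherin repeats too, but act mostly as adaptors and synaptic organizers: they dock vesicles to kinesin motors, share adaptors and secretases with the amyloid precursor protein App, and bind neurexins. N-cadherin itself meets the family directly. Pcdh8, known in rat neurons as arcadlin, draws N-cadherin in from the dendritic surface, and Pcdh19 forms a complex with N-cadherin in zebrafish.

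By the authors' account the deposited values are read counts per gene normalized with DESeq2, on a linear scale. They are called normalized values here. Many low values were not whole multiples of 1 read, as given with the processing. The values of a library summed to 8.69 M to 10.03 M, and the step of 1 read in the low values put the depth at about 7.74 M to 11.3 M reads. Genes were compared on log2(value + 1) with limma over all 16 libraries, and the threshold was an adjusted p no higher than 0.05 with a fold of 1.3 or more, 0.379 on the log2 scale. Tissue markers matched the labels: *Th*, the first enzyme of dopamine synthesis, was higher in the vMB by a log2 difference of 4.34 and *Slc17a7*, the glutamate transporter of cortical excitatory neurons, was lower by a log2 difference of −3.53 (limma adjusted p = 7.6e-11 and 2.1e-08). *Cdh2*, the targeted gene, had normalized values of 1103, 1165, 1023 and 923 in PFC WT and 522, 779.6, 663 and 577 in PFC Mutant libraries 1 to 4. In the vMB they were 1082, 1115, 1148 and 1124 in WT and 1109.7, 1043, 590.0 and 574 in Mutant libraries 1 to 4, so that vMB Mutant 1 and 2 lay near the WT level and vMB Mutant 3 and 4 far under it. The substitution changes the protein, so the *Cdh2* level does not check the genotype. In these bulk samples, fewer cells of a type and less RNA per cell cannot be told apart. The PFC and the vMB were both dissected from the frozen hemisphere of each brain, so libraries of the 2 tissues can share an animal. Nothing in the sources used here says which PFC and vMB libraries do. The main fit treated all 16 libraries as independent, also for the mean change over both tissues, and p-values measure the spread between these libraries. The sample titles carry letters whose meaning is not stated: WT libraries have B, C or E and Mutant libraries have A, C or D, so apart from C what the letters mark and the genotype cannot be told apart. Full codes, a letter with a number, recur in both tissues for 4 libraries of each, and whether such a code names an animal is not given.

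The genes are scattered over the genome, except that *Pcdh8*, *Pcdh17* and *Pcdh9* all lie on chromosome 14. In GENCODE vM21 (GRCm38), *Pcdh17* spans 84443563 to 84539002 on the plus strand, *Pcdh8* 79766775 to 79771312 on the minus strand and *Pcdh9* 93013410 to 93890679 on the minus strand. *Pcdh7* lies on chromosome 5 (57717967 to 58133230), *Pcdh10* on 3 (45378398 to 45435623) and *Pcdh19* on X (133582860 to 133688987). *Clstn1* lies on chromosome 4 (149586468 to 149648899), *Clstn2* on 9 (97444395 to 98033181) and *Clstn3* on 6 (124430759 to 124464794). The union of their exons ran from 4.54 kb in *Pcdh8* to 15.9 kb in *Pcdh10*. Of the 10, 5 belonged to the longest 20% of tested genes (over 7631 bases). *Pcdh8*, *Clstn1* and *Clstn3* belonged to the middle 20% (3715 to 5235 bases). All but *Clstn1* and *Clstn3* overlap at least 1 other annotated gene, and the sources do not say whether reads were counted by strand.

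Promoter sequence was matched by symbol in RefSeq (GRCm38.p6) for 9 of the 10 genes, with 11 promoter entries. A gene was counted if any of its entries matched, while the shares of all promoters count single entries. In the 250 bases before the start, on either strand, CCAAT (reverse ATTGG) occurred in 7 of the 9 genes (*Pcdh8*, *Pcdh9*, *Pcdh10*, *Pcdh17*, *Pcdh19*, *Clstn1* and *Clstn3*), against 33.8% of 32851 promoters. GGGCGG (reverse CCGCCC) occurred in 5 of the 9, against 32.7%. The cyclic AMP response element TGACGTCA, the same on both strands, was in *Clstn2* alone (1.5% of promoters), TATAAA (reverse TTTATA) in *Pcdh8* alone (12.4%), and CACGTG in none (6.0%). These are matches of letters and not sites of binding. The stretches from 120 to 21 bases before the start are shown for 6 of the genes whose levels are described in detail, with those matches in capitals, so that the promoters of one family can be set beside each other.
*Pcdh17* (chr14:84443443-84443542, plus strand): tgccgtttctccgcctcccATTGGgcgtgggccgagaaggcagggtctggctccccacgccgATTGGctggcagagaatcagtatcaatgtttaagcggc
*Pcdh8* (chr14:79771333-79771432, minus strand): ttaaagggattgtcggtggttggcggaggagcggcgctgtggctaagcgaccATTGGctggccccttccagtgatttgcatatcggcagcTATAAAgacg
*Pcdh9* (chr14:93890700-93890799, minus strand): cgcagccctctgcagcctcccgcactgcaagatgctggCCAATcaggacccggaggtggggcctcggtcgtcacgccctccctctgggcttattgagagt
*Pcdh10* (chr3:45378278-45378377, plus strand): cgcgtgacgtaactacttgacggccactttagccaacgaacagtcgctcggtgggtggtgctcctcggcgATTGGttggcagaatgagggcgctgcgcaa
*Clstn1* (chr4:149586348-149586447, plus strand): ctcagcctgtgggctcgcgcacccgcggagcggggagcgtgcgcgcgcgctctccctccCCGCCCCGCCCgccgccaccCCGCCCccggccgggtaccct
*Clstn2* (chr9:98033188-98033287, minus strand): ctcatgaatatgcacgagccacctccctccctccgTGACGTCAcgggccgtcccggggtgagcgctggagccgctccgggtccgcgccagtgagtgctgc
*Pcdh17* holds 2 copies of the reversed CCAAT letters, *Pcdh8* 1 copy and a TATAAA match that starts 30 bases before the start, *Pcdh9* 1 in the forward orientation and *Pcdh10* 1 in the reverse. *Clstn1* shows 3 matches of the GC box in a stretch of 84.0% G and C, 2 of them sharing a base, and *Clstn2* the response element between 85 and 78 bases before the start.

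In WT tissue *Clstn1* and *Clstn3* stood above all 7 protocadherins in level per length, and *Clstn2* lay among them. Divided by the summed exon length in kb, *Clstn1* was the highest of the 10 genes in the PFC, with a mean normalized value per kb of 2653 ± 204 (SD, n = 4), and *Pcdh19* the lowest, with 28.8 ± 2.32 (SD, n = 4), a ratio of 92.3. Between them in the PFC came *Clstn3* (691 per kb), *Pcdh1* (259), *Pcdh10* (139), *Clstn2* (115), *Pcdh9* (70.3), *Pcdh8* (66.4), *Pcdh7* (50.9) and *Pcdh17* (42.7). Neighbours in this order whose libraries overlapped were *Pcdh10* and *Clstn2*, *Pcdh9* and *Pcdh8*, *Pcdh8* and *Pcdh7*, and *Pcdh7* and *Pcdh17*. The other neighbouring pairs did not overlap.
In the vMB the same genes were at the ends, *Clstn1* at 1577 ± 74.8 and *Pcdh19* at 26.4 ± 4.18 per kb (SD, n = 4), a ratio of 59.8. The middle of the order differed from the PFC. *Pcdh9* (130 per kb) came after *Clstn3* (679), followed by *Clstn2* (100.5), *Pcdh1* (75.9), *Pcdh10* (72.9), *Pcdh8* (53.5), *Pcdh17* (53.4) and *Pcdh7* (44.9). From *Pcdh1* down to *Pcdh7* each gene overlapped its neighbour, and *Pcdh1* and *Pcdh10*, which followed *Clstn3* in the PFC, lay among the overlapping genes.

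**Figure D1:**
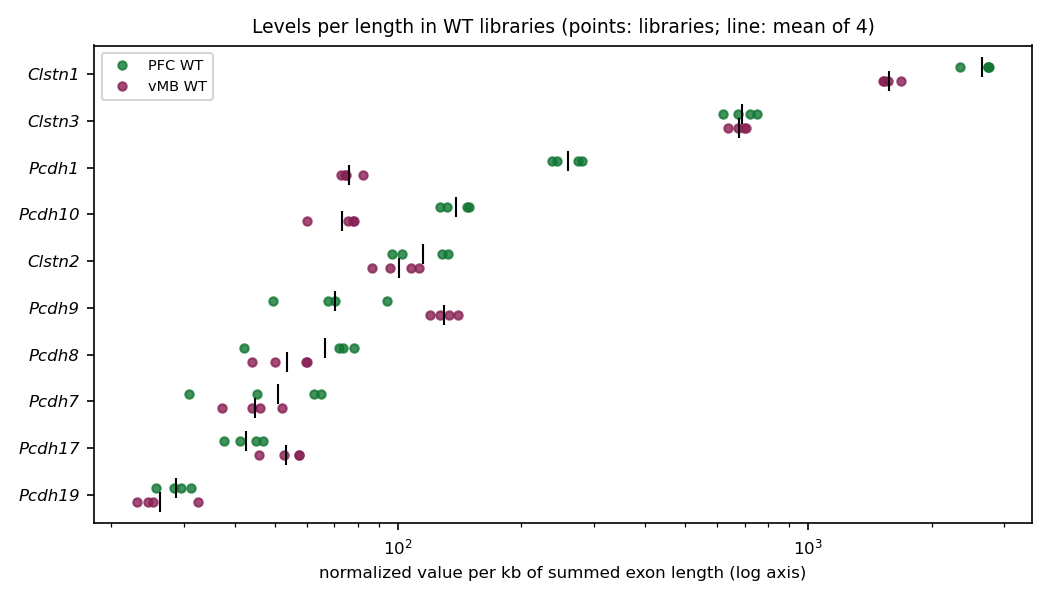
Normalized value per kb of summed exon length (horizontal log axis) for each of the 10 genes in the 4 PFC WT (green) and 4 vMB WT (purple) libraries, with a line at the mean of each group of 4. *Clstn1* and *Clstn3* lie above all protocadherins in both tissues, and the tissues are separated for *Pcdh1*, *Pcdh10*, *Pcdh9* and *Clstn1*.

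Of the 10 genes, 3 were lower and 1 was higher in the vMB than in the PFC of WT mice, while 43.6% of all tested genes passed this comparison. *Pcdh1* (chromosome 18, 38185914 to 38212053) encodes an adhesion protein best known from airway epithelium, and it showed the largest difference of the family. Its normalized values were 2414, 2152, 2087 and 2469 in PFC WT and 638, 653, 723 and 657 in vMB WT libraries 1 to 4. The groups were far apart, and the PFC mean was 3.42-fold the vMB mean (log2 difference −1.77, SE 0.14, limma adjusted p = 7.1e-09). *Pcdh10*, which is needed in mice for the growth of striatal axons, had values of 2368, 2096, 2342 and 2015 in the PFC and 956, 1237, 1199.8 and 1239.9 in the vMB. All 4 PFC libraries lay above all 4 vMB libraries, with a PFC mean 1.90-fold higher (log2 difference −0.93, SE 0.13, limma adjusted p = 8.7e-06). *Clstn1*, the adaptor that docks axonal vesicles to kinesin, had values of 12810.4, 10942, 12898 and 12830.2 in the PFC and 7304, 7114, 7135 and 7861 in the vMB. Its PFC mean was 1.68-fold higher (log2 difference −0.75, SE 0.10, limma adjusted p = 4.5e-06), again with no overlap.
*Pcdh9*, a delta-1 protocadherin of cortical and other neurons, went the other way. Its values were 457, 337, 637 and 476 in the PFC and 859, 810.4, 904 and 948 in the vMB, so that every vMB library lay above every PFC library. The vMB mean was 1.85-fold higher (log2 difference 0.92, SE 0.17, limma adjusted p = 2.1e-04). *Pcdh17* was higher in the vMB by a log2 difference of 0.32 (SE 0.11, limma adjusted p = 0.0185), under the fold minimum, and 1 vMB library fell within the PFC range. The other 5 genes did not pass: their log2 differences ran from −0.28 in *Pcdh8* (95% interval −0.66 to 0.10) to −0.02 in *Clstn3* (−0.17 to 0.12). *Pcdh8* passed without PFC WT 3 (−0.49, limma adjusted p = 0.0120), the library with its lowest PFC WT value.
The same 4 genes were separated between the tissues in the Mutant libraries, where *Pcdh1* was 3.31-fold, *Pcdh10* 1.88-fold and *Clstn1* 1.76-fold higher in the PFC and *Pcdh9* 2.38-fold higher in the vMB (exact permutation p = 0.0286 each, the smallest that 4 against 4 libraries can give). *Pcdh17* joined them there, 1.36-fold higher in the vMB with no overlap (exact p = 0.0286). In WT, 24.3% of tested genes were lower and 25.4% higher in the vMB with no overlap. The matching shares in Mutant libraries were not worked out, so separation there is not shown to be particular to these genes. Markers of several cell types differed between the tissues as well. The summed normalized value of 8 markers of cortical excitatory neurons was 19294 to 21365 in PFC WT and 1514 to 3243 in vMB WT, with 8 of 8 lower, and that of 8 oligodendrocyte markers was 22960 to 67029 and 135181 to 161851, with 8 of 8 higher. In other lists, 6 of 8 microglial markers were lower in the vMB of WT mice. Higher there were 5 of 6 tested dopamine neuron markers and 2 of 3 GABA neuron markers. Of 7 astrocyte markers 2 were lower and 3 higher. Among all tested genes, 21.6% were lower and 22% higher. The part of these cell types in the differences of the 10 genes was not tested.

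In Mutant mice the means of all 10 genes lay below those of WT in the PFC and in the vMB, but no gene of the family passed the test in either tissue. The Mutant mean was 70.1% (*Pcdh7*) to 94.6% (*Clstn3*) of the WT mean in the PFC and 73.7% (*Pcdh8*) to 94.7% (*Pcdh9*) in the vMB. Among all tested genes, 0.142% passed in the PFC and 3.25% in the vMB, and 51.5% and 51.1% had a log2 fold change below 0. The median log2 fold change of the 10 genes was −0.27 in the PFC and −0.22 in the vMB, beside −0.01 for all tested genes in each. Before adjustment, 4 of the 10 had a limma p under 0.05 in the PFC (*Pcdh7*, *Pcdh9*, *Pcdh17* and *Clstn2*) and 3 in the vMB (*Pcdh8*, *Pcdh17* and *Clstn1*), against 9.07% and 10.9% of tested genes with a lower value. Only the mean change over both tissues gave a pass, for *Pcdh17*, where 2.59% of tested genes passed and 1.64% were lower.

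**Figure D2:**
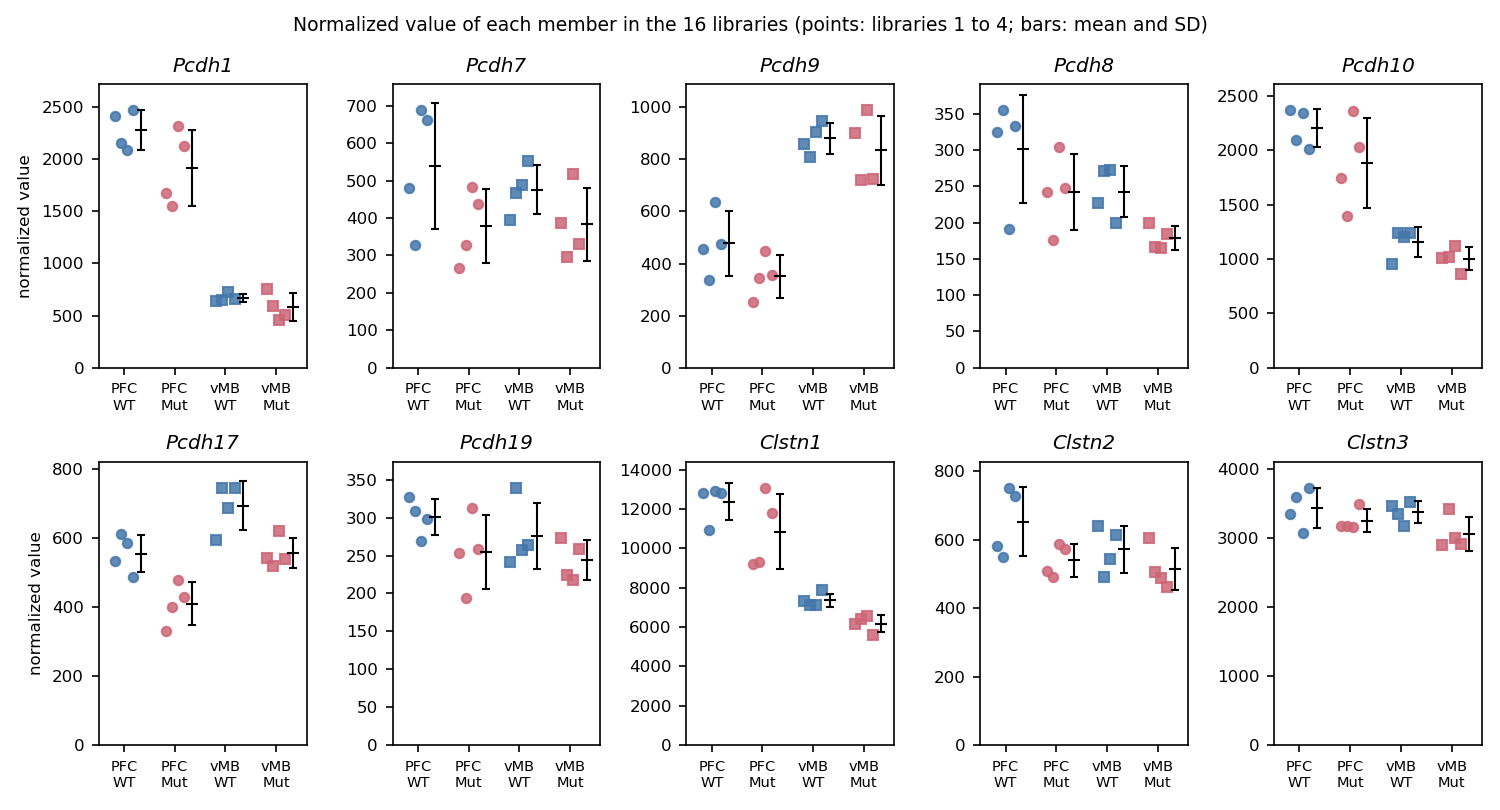
Normalized value (vertical axis, from 0) of each of the 10 genes in PFC (circles) and vMB (squares) libraries of WT (blue) and Mutant (red) mice; points from left to right are libraries 1 to 4, and bars give the mean and SD (n = 4). Mutant means lie below WT means in every panel and tissue, with no overlap for *Pcdh17* in the PFC and for *Pcdh8* and *Clstn1* in the vMB.

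Among the delta-1 genes, *Pcdh7*, whose tail binds protein phosphatase 1, had the lowest Mutant mean of the family in the PFC relative to WT. Its normalized values were 479, 329, 688 and 662 in PFC WT and 266, 328, 482 and 436 in PFC Mutant libraries 1 to 4. Both groups were spread widely and overlapped, since PFC WT 2 had a value as low as PFC Mutant 2. The log2 fold change was −0.49 (95% interval −0.96 to −0.02, limma adjusted p = 0.276). In the vMB *Pcdh7* had values of 395, 467, 488 and 552 in WT and 388, 296, 517 and 331 in Mutant libraries, where vMB Mutant 3 lay within the WT range and the other Mutant libraries below it (log2 fold change −0.33, interval −0.81 to 0.14).
*Pcdh9* had the larger of its changes in the PFC, with Mutant values of 251, 345, 449.5 and 356 against the WT values given above. Its log2 fold change was −0.44 (interval −0.80 to −0.07, limma adjusted p = 0.207) in the PFC and −0.09 (−0.45 to 0.28) in the vMB, where the Mutant values were 903, 721, 988 and 724. The difference between these changes was 0.35 (interval −0.17 to 0.86, limma adjusted p = 0.888), so a different response of the tissues was not shown. *Pcdh1* had Mutant values of 1672, 1547, 2319.6 and 2122 in the PFC and 759, 597, 456 and 505 in the vMB. PFC Mutant 1 and 2 were far below WT and PFC Mutant 3 and 4 within it, while in the vMB Mutant 1 lay above all WT libraries and the other Mutant libraries below all of them. Its log2 fold change was −0.27 (interval −0.56 to 0.02) in the PFC and −0.23 (−0.52 to 0.06) in the vMB.

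Among the delta-2 genes, *Pcdh17*, which acts in mice at synapses between the cortex and the basal ganglia, was the one gene of the family that passed a genotype test. In the PFC its normalized values were 534, 610.5, 586 and 488 in WT and 329, 400.1, 478 and 428 in Mutant libraries 1 to 4. Every Mutant library lay below every WT library, and the means were 555 ± 54.7 and 409 ± 62.3 (SD, n = 4; exact permutation p = 0.0286). In the vMB the values were 595, 746, 686 and 745 in WT and 543, 519.8, 621 and 540.3 in Mutant libraries, where Mutant 3 lay above vMB WT 1 and the other Mutant libraries below all WT (means 693 ± 71.1 and 556 ± 44.6, SD, n = 4; exact permutation p = 0.0571).
*Pcdh17* had a log2 fold change of −0.45 (SE 0.11, limma adjusted p = 0.0751) in the PFC, −0.31 (SE 0.11, adjusted p = 0.0922) in the vMB and −0.38 (SE 0.08, limma adjusted p = 0.00376) as the mean over both tissues. That last value is only just past the fold minimum. With any 1 library left out the limma adjusted p over both tissues stayed between 0.0017 and 0.011, and the fold minimum was passed in 7 of 16 fits (range −0.42 to −0.33). Without PFC Mutant 3 *Pcdh17* passed in the PFC alone (−0.53, limma adjusted p = 0.0261), when 260 genes passed instead of 21, and without vMB WT 1 in the vMB alone (−0.39, limma adjusted p = 0.0498).
*Pcdh8*, the partner of N-cadherin named above, showed its clearest separation in the vMB. Values there were 227, 271, 273 and 200.0 in WT and 199.6, 167, 166 and 184 in Mutant libraries 1 to 4. The groups did not overlap, although vMB WT 4 and vMB Mutant 1 were almost equal (means 243 ± 35.6 and 179 ± 16.1, SD, n = 4; exact permutation p = 0.0286). The log2 fold change was −0.43 (SE 0.18, limma adjusted p = 0.173), and with the 8 vMB libraries fitted alone it passed (adjusted p = 0.0468).
In the PFC the values of *Pcdh8* were 326, 355, 191 and 334 in WT and 242, 176, 304 and 248 in Mutant libraries, with PFC WT 3 inside the Mutant range (log2 fold change −0.30, interval −0.68 to 0.08). Over both tissues it was −0.36 (limma adjusted p = 0.0702), and it passed without PFC WT 3 (−0.47, adjusted p = 0.0085) or without PFC Mutant 3 (−0.42, adjusted p = 0.0345).
*Pcdh10* had Mutant values of 1744, 1391, 2362 and 2028 in the PFC and 1006, 1021, 1118 and 859.9 in the vMB. As for *Pcdh1*, PFC Mutant 1 and 2 were below all WT libraries and PFC Mutant 3 and 4 within their range. Its log2 fold change was −0.25 (interval −0.53 to 0.02) in the PFC and −0.21 (−0.48 to 0.07) in the vMB. *Pcdh19*, an X-linked gene whose loss in women causes epilepsy, ran from 269 to 327 in PFC WT, 194 to 312 in PFC Mutant, 242 to 340 in vMB WT and 218 to 273 in vMB Mutant libraries. The log2 fold change of *Pcdh19* was −0.26 (interval −0.54 to 0.02) and −0.17 (−0.45 to 0.11), with overlap in both tissues.

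Among the calsyntenins, *Clstn1* was separated in the vMB and not in the PFC. Its vMB Mutant values were 6161, 6392, 6546 and 5581 in libraries 1 to 4, all below the lowest WT value of 7114 (means 7354 ± 349 and 6170 ± 423, SD, n = 4; exact permutation p = 0.0286). In the PFC the Mutant values were 9208, 9287, 13092 and 11795, with Mutant 1 and 2 below all WT libraries and Mutant 3 above all of them. The log2 fold change was −0.20 (SE 0.10, limma adjusted p = 0.303) in the PFC, −0.25 (SE 0.10, adjusted p = 0.136) in the vMB and −0.23 (SE 0.07, limma adjusted p = 0.0378) over both tissues. The last met the p threshold and not the fold minimum. With 1 library left out its limma adjusted p ran from 0.00627 to 0.0884, so the p threshold was not always met. It was 0.08 with no filter on low values and 0.116 with the length trend described below removed. Without a fold minimum, 6.64% of tested genes were lower over both tissues.
*Clstn2*, a postsynaptic calsyntenin, ranged from 551 to 753 in PFC WT, 491 to 588 in PFC Mutant, 491 to 641 in vMB WT and 461 to 604 in vMB Mutant libraries (log2 fold change −0.26, interval −0.51 to −0.02, in the PFC and −0.15, −0.40 to 0.09, in the vMB). *Clstn3*, which binds neurexins across the synapse, had the smallest change over both tissues (−0.11). It ranged from 3076 to 3729, 3164 to 3496, 3167 to 3514 and 2893 to 3424 in the same groups (log2 fold change −0.08, interval −0.22 to 0.07, and −0.14, −0.29 to 0.00).
Groups without overlap, lower in Mutant, thus occurred in 1 of the 10 genes in the PFC and 2 in the vMB. The shares of all tested genes were 3.79% and 7.56%, and of the longest 20% 10.9% and 19.2%. *Pcdh7* over both tissues was −0.41 (limma adjusted p = 0.0992) and did not pass. Among the fits with 1 library left out it passed without PFC WT 2 (−0.52, limma adjusted p = 0.0221) and without vMB Mutant 3 (−0.49, adjusted p = 0.0493). The change over both tissues had an unadjusted limma p under 0.05 in 10 of the 10 genes, a value that 14.7% of all tested genes and 39.4% of the longest 20% reached with a lower level in Mutant. None of the 10 changes differed between the tissues by limma, also before adjustment, when 2.67% of tested genes had a difference above 0 and 3.17% one below 0 at a p under 0.05, and 0% passed with adjustment.

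**Figure D3:**
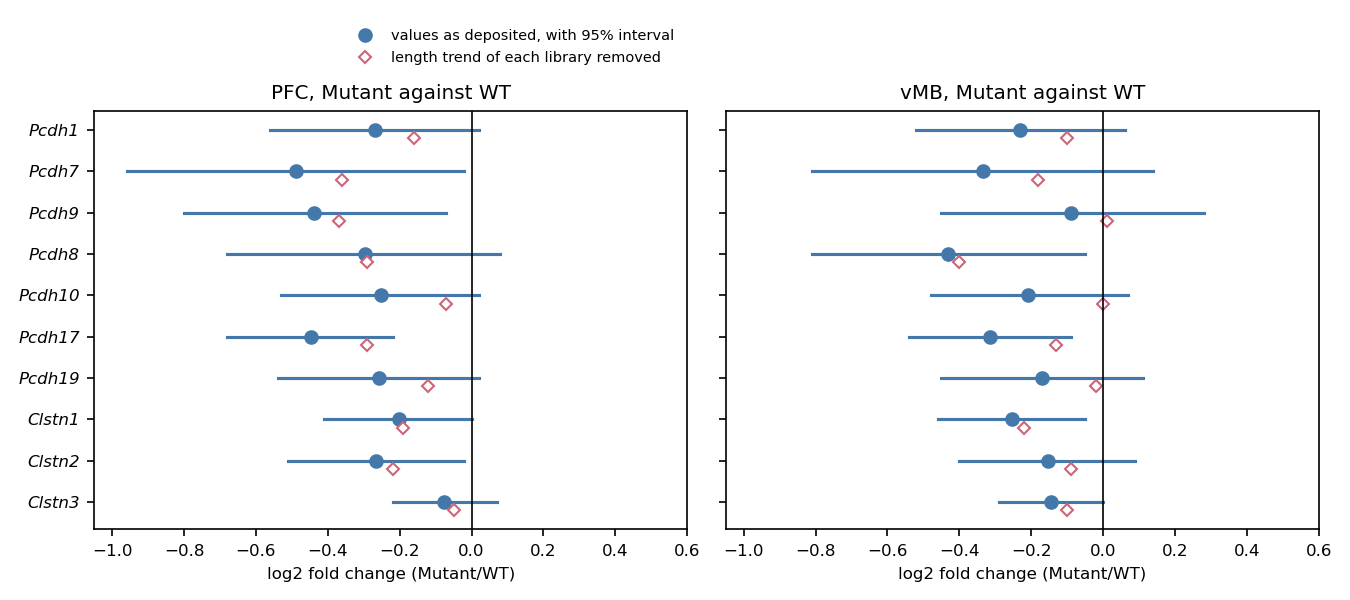
Log2 fold change of Mutant against WT in the PFC (left) and the vMB (right) for each gene, from limma on the deposited values (blue circles with 95% intervals) and after each library's trend with exon length was removed (red diamonds). All 10 circles lie below 0 in both tissues; in the vMB the diamonds of *Pcdh9* (0.01) and *Pcdh10* (0.00) reach 0.

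The change between genotypes depended on gene length across the whole transcriptome, and the 10 genes differ in length. *Pcdh1*, *Pcdh7*, *Pcdh10*, *Pcdh17* and *Pcdh19* belong to the longest 20% of tested genes. *Pcdh8*, *Clstn1* and *Clstn3* belong to the middle 20%, where the median log2 fold change of all genes was −0.009 in the PFC and −0.013 in the vMB. The median log2 fold change fell from 0.14 in the shortest 20% of tested genes to −0.13 in the longest 20% in the PFC, and from 0.16 to −0.14 in the vMB. In the longest 20%, 79.1% of genes in the PFC and 76.4% in the vMB had a value below 0. The slope of a library's deviation on log2 exon length was 0.056 to 0.099 in PFC WT, −0.031 to 0.029 in PFC Mutant, −0.031 to 0.036 in vMB WT and −0.12 to −0.064 in vMB Mutant libraries, so that no Mutant library reached the slope of a WT library of its tissue. The part of this slope in the changes of the 10 genes was not tested.
With each library's trend removed by loess, all 10 genes kept a log2 fold change below 0 in the PFC (median −0.20, all tested genes 0.01) and 8 of 10 in the vMB (median −0.10, all tested genes 0.02). *Pcdh8* and *Clstn1*, of moderate length, moved little: *Pcdh8* was −0.29 in the PFC and −0.40 in the vMB, and *Clstn1* −0.19 and −0.22. The longest genes moved most, *Pcdh10* to −0.07 and 0.00 and *Pcdh17* to −0.29 and −0.13. *Pcdh17* over both tissues became −0.21 (limma adjusted p = 0.104) and no longer passed, and 0 of the 10 genes did. At an unadjusted limma p under 0.05 over both tissues, *Pcdh8*, *Pcdh17* and *Clstn1* were left, 3 of 10, against 7.69% of tested genes that were lower. *Pcdh17* in turn passed between the tissues of WT mice (0.44, limma adjusted p = 0.00124).

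**Figure D4:**
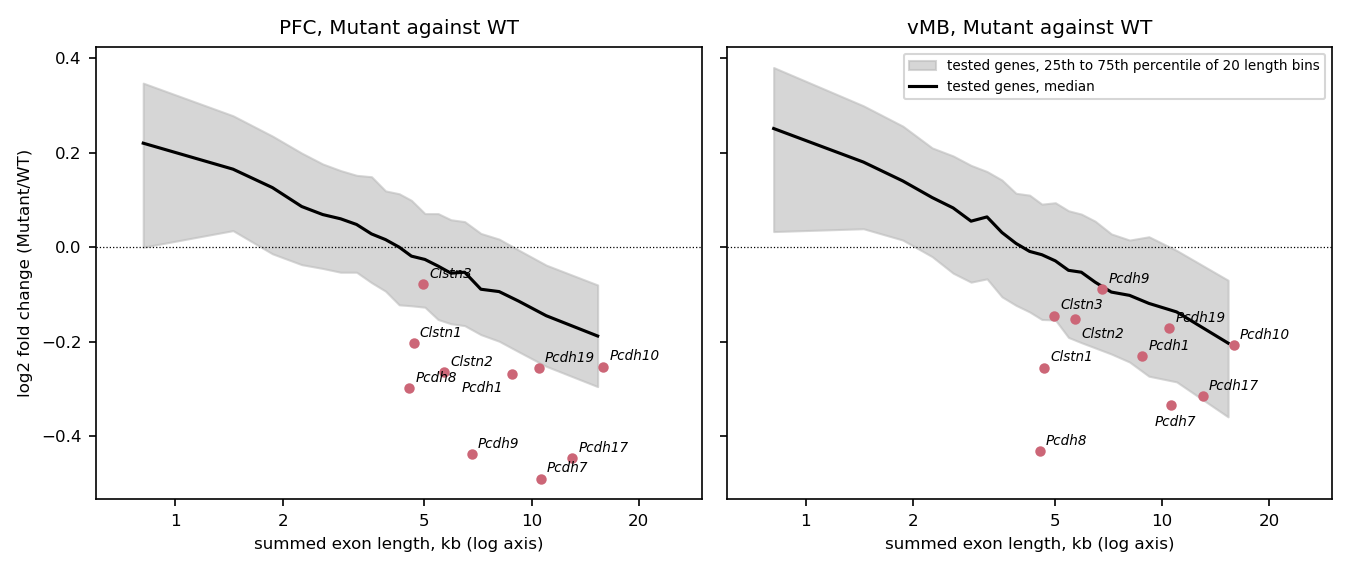
Log2 fold change of Mutant against WT (vertical axis) against summed exon length in kb (log axis) in the PFC (left) and the vMB (right). The black line and grey band are the median and the 25th to 75th percentile of all tested genes in 20 length bins; in the PFC 8 of the 10 genes (red points), all except *Pcdh10* and *Clstn3*, lie under the band, *Pcdh19* only just, and in the vMB *Pcdh8*, *Clstn1* and *Pcdh7* do.

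The lower values in the PFC came mostly from a pair of libraries. PFC Mutant 1 and PFC Mutant 2 each lay below all 4 WT libraries in 8 of the 10 genes, with a median level of 76.2% of the WT mean in PFC Mutant 1 and a lower one in PFC Mutant 2. PFC Mutant 3 did so in 1 gene (*Pcdh17*; median 97.6%) and PFC Mutant 4 in 2 (86.9%). In the vMB the lower values were shared more evenly, in 5, 7, 6 and 9 of the 10 genes for Mutant 1 to 4, with median levels of 86.3%, 84.4%, 88.8% and 76.9%. The length slopes had the same ends in the PFC, where Mutant 2 had the lowest slope of its group (−0.031) and Mutant 3 the highest (0.029). In the vMB the slope was lowest in Mutant 2 (−0.122) and highest in Mutant 1 (−0.064), while the median level was lowest in Mutant 4 and highest in Mutant 3.
Some markers of other cells differed between genotypes as well. In the PFC the summed normalized value of 7 astrocyte markers was 37479 to 40664 in WT and 30890 to 36960 in Mutant libraries. There 6 of 7 had a log2 fold change below 0 and 0 of 7 passed. The astrocyte sum in the vMB was 31405 to 33183 in WT and 32308.5 to 35386.5 in Mutant libraries, with 3 of 7 below 0. In the vMB, 4 of 8 endothelial markers (*Cdh5*, *Tek*, *Flt1* and *Pecam1*) and 2 of 8 markers of pericytes and smooth muscle (*Pdgfrb* and *Notch3*) were lower, and 1 of 8 microglial markers (*P2ry12*) was higher, where 2.02% of all tested genes were lower and 1.23% higher. Log2 fold changes below 0 in the vMB were found in 7 of 8 endothelial, 8 of 8 pericyte and smooth muscle and 4 of 8 microglial markers. The microglial median was 0.01. The endothelial sum was 1569 to 2002 in WT and 1358 to 1502 in Mutant, and that of pericytes and smooth muscle 1574 to 1925 and 1403 to 1593. Over both tissues 6 of 75 markers were lower, where 1.64% of all tested genes were lower. They were *Cdh5*, *Flt1* and *Tek* of the endothelial list, *Notch3* and *Abcc9* (−0.59, limma adjusted p = 0.0194) of pericytes and smooth muscle, and *Col1a1* (−0.73, adjusted p = 0.00839) of 7 fibroblast genes. No marker of neurons, cortical excitatory, GABA or dopamine neurons, astrocytes, oligodendrocytes, their precursors or fibroblasts passed in either tissue, and none of any list passed in the PFC. At an unadjusted limma p under 0.05, 11 of 75 markers were lower and 3 higher in the PFC (9.07% and 8.03% of all tested genes), 18 and 2 in the vMB (10.9% and 9.99%) and 19 and 3 over both tissues (14.7% and 12.8%). The dopamine marker *Foxa1* was at 0 in every PFC library. The part of these cells in the changes of the 10 genes was not tested.

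The remaining delta-protocadherins and relatives were tested for 4 of 5 genes, *Pcdh12* being too low. *Pcdh15*, the protocadherin of hair-cell tip links, was lower in Mutant in the vMB (log2 fold change −0.73, SE 0.19, limma adjusted p = 0.0309) and over both tissues (−0.57, adjusted p = 0.0104), and in the PFC it was −0.41 (adjusted p = 0.287). *Pcdh11x* and *Pcdh18* passed no genotype test and were higher in the vMB than in the PFC of WT mice by log2 differences of 0.50 and 0.86 (limma adjusted p = 0.0397 and 2.9e-04).
Of 9 genes of the WAVE complex and its WASF subunits, 1 was lower in the vMB and over both tissues. Of all tested genes, 2.02% and 1.64% were lower in these comparisons. The gene was *Wasf2*, an actin nucleation factor (vMB −0.47, SE 0.13, limma adjusted p = 0.0376; both tissues −0.39, adjusted p = 0.00922). The median of the 9 genes was −0.07 in the PFC and −0.12 in the vMB. Between the tissues, 6 of the 9 were lower in the vMB of WT mice, among them *Wasf1* (−1.86) and *Abi2* (−1.16).
None of 12 signalling partners, 11 kinesin, App and adaptor genes and 8 secretase genes passed in the PFC, in the vMB or over both tissues by limma. Of these 31 genes, 7, 5 and 8 were lower and 2, 3 and 5 higher at an unadjusted p under 0.05 in the PFC, in the vMB and over both tissues, where 9.07%, 10.9% and 14.7% of all tested genes were lower and 8.03%, 9.99% and 12.8% higher. *Ppp1ca*, the catalytic subunit of protein phosphatase 1, reached the p threshold in the vMB with a rise under the fold minimum (0.26, limma adjusted p = 0.0383). *Taok2*, the kinase that acts with Pcdh8, was −0.18 in the vMB (adjusted p = 0.119).
Between the tissues of WT mice, 10 of the 12 signalling partners were lower in the vMB, among them *Dlg4*, the scaffold PSD-95 (−1.31), *Smad3* (−1.85), *Dab1* (−0.98) and *Cdh11*, a classical cadherin (−0.96). *Kif5a*, *Kif5c* and *Apba2* were lower as well, while *Kif5b*, another kinesin heavy chain (0.85), and the gamma-secretase subunit *Psenen* (0.38) were higher, the last just past the fold minimum. Of all tested genes, 21.6% were lower and 22% higher in this comparison.

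The levels of the 10 genes did not follow a single pattern over the 16 libraries. Over the 45 pairs of genes the Pearson r of log2 values ran from −0.80 to 0.97 with a median of 0.35, and after the group means were taken out from −0.38 to 0.90 with a median of 0.29. Over the 16 libraries, 36 of the 45 were above 0 and, within groups, 33. The points share the libraries, so these are descriptions with no test, and the tissue difference carries much of the first.
Among 11084 other tested genes with a mean of at least 50, the one most like *Pcdh1* was *Sobp* (r = 0.997 over 16 libraries). *Clstn1* was most like *Madd* (0.985) and *Plxna2*, a semaphorin receptor (0.982), *Pcdh10* most like the neuronal transcription factor gene *Myt1l* (0.978) and *Dcaf5* (0.976), and *Pcdh9* most like *Ttll7* and *Efr3a* (0.982 each). These 4 genes are those that differed between the tissues. For *Pcdh17* the nearest were *Hmbox1* (0.949) and *Etnk1* (0.926), for *Pcdh7* *Asxl2* (0.897) and *Lmbrd2* (0.893), and for *Pcdh8* *Cttn*, the gene of the actin-binding protein cortactin (0.890), and *Itga4* (0.849). *Clstn2* (*Uggt1* 0.867, *Gatad2b* 0.83), *Clstn3* (*Pigq* 0.863, *Hcn3* 0.818) and *Pcdh19* (*Chl1* 0.824, *Zfp354c* 0.815) had the weakest.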

How the data were processed

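The 16 libraries are 4 WT and 4 Mutant mice for each of the PFC and the vMB. Poly-A libraries were read single-end, and the authors, per their notes, used Cutadapt 1.8.3, TopHat 2.0.10, HTSeq-count 0.6.1p1 and DESeq2, whose version is not given. By the authors' account the deposited signal values are DESeq2-normalized read counts. The build they name is of the human genome while the identifiers are of mouse genes, so the mouse build behind the values is not known. The p-value columns deposited by the authors, the score columns (signed fold changes) deposited by the authors and their pass marks hold their own comparisons and were not used. At most 72.1% of the low values of a library were whole multiples of its step of 1 read within 0.05. The share was 97.0% to 97.9% in genes with 1 annotated transcript and 39.8% to 42.9% in genes with 2 or more. Each of the 10 genes has at least 2 annotated transcripts. Whether their values are plain counts is thus not known, and no test on counts was run.

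Of 39017 genes, 14814 with a mean of at least 10 were tested with limma 3.58.1 in R 4.3.3 (mean-variance trend, two-sided, Benjamini-Hochberg over all tested genes) on log2(value + 1), with 4 groups. Single genes were also compared by two-sided exact permutation over 70 splits. The pipeline was tested on simulated data. Exon lengths and coordinates come from GENCODE vM21 (GRCm38) and promoters from RefSeq (GRCm38.p6); 99.0% of tested genes had a length. The genes and lists were chosen with earlier results of these data known. Named genes are the 10 genes, the 2 genes most like each by Pearson r over 16 libraries (mean of at least 50, gene models left out), up to 4 genes of each of 6 partner lists and 11 marker lists that passed, and *Cdh2*. Some results, 1 partner list among them, are not reported here. Genes of these lists named without a pass were chosen after their values were seen. The alternatives included pseudocounts of 0.5 and 5, no filter, a mean of at least 50, upper quartile and quantile scaling, no fold minimum, a replicate block, removal of the length trend (loess, span 0.3) with and without the block, the title code as a correlated block, fits of 8 libraries, and each library left out.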

Additional observations from a re-analysis of the deposited data

Results flagged for a closer look

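Of 40 groups of 4 libraries (10 genes in 4 groups), 3 had 1 library far from the other libraries by Dixon's test; chance alone flags about 1 in 20. *Pcdh10* was 955.6 in vMB WT 1, against 1199.8 to 1239.9 in the other vMB WT libraries. *Clstn1* was 10942 in PFC WT 2, against 12810.4 to 12898 in the other PFC WT libraries. *Clstn3* was 3496 in PFC Mutant 4, against 3164 to 3169 in the other PFC Mutant libraries.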

How the results depend on the processing

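All 10 genes stayed below WT in the PFC under all 28 alternatives, and in the vMB except that *Pcdh9* (0.01) and *Pcdh10* (0.00) turned with the length trend removed, with or without the replicate block. Between WT tissues *Clstn3* turned to 0.22 under quantile normalization, and with a library left out *Pcdh7* ran from −0.35 to 0.00 (without PFC WT 3) and *Clstn3* from −0.07 to 0.02 (without PFC WT 4; 0.01 without vMB WT 3). The difference between tissues of *Pcdh8* ran from −0.28 to 0.07 (without PFC WT 3). The cause was not tested.
Genes passing in the PFC (21) were 3 with no filter, 57 with a mean of at least 50, 3 with the replicate block, 0 with the length trend removed, with or without the block, 0 in a fit of 8 libraries, and 0 to 260 with a library left out (260 without PFC Mutant 3). In the vMB (481) they were 956 with no fold minimum, 134 with the length trend removed, 118 with the block as well, and 163 to 573 with a library left out. Over both tissues (383) they were 1923 with no fold minimum, 114 and 118 with the length trend removed without and with the block, and 245 to 542 with a library left out. For the difference (0) they were 0 to 1, and between WT tissues (6457) 6210 to 6501 with a library left out.
Of the 10 genes, 1 passed in the vMB in a fit of 8 libraries (*Pcdh8*). Over both tissues 0 passed with a pseudocount of 5, upper quartile scaling, quantile normalization or the length trend removed, with or without the block, and 2 with no fold minimum (*Pcdh17* and *Clstn1*) or with the replicate block (*Pcdh17* and *Pcdh7*, the latter −0.41, limma adjusted p = 0.027). With a library left out, 0 to 1 passed in the PFC, 0 to 1 in the vMB, 0 to 2 over both tissues and 4 to 5 between WT tissues. Samples with the same replicate number did not deviate together (correlations −0.13 to 0.09), nor did the 4 pairs with the same title code (−0.03 to 0.01). Whether either label marks an animal is not stated. Depth of about 7.74 M to 11.3 M reads and 4 libraries a group limit the precision.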
